A study of Mus musculus with 6 samples.

Results

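Complement and coagulation factors are plasma proteins that the liver makes and secretes, and 45 of their genes were followed here in liver RNA-seq of mice fed a high-fat diet (HFD) with or without allantoin. The genes were taken from a list of complement, coagulation, kinin and related plasma protein genes expressed by hepatocytes, with the serpin protease inhibitors left out, and were found in the count table by gene symbol. All 45 were among the 54532 genes of the table, and all 45 passed the filter on low counts that left 12795 genes for testing. The samples were whole livers of wild-type male C57BL/6J mice, with 3 mice in each group and 1 library per mouse. Both groups entered at 8 weeks of age, as the study's methods give it (the deposited growth protocol gives 4 weeks), and ate the HFD (60% of energy as fat) first for 4 weeks and then throughout a second period of 4 weeks. In that second period the HFD+Allantoin-H mice (replicates 4 to 6) also received allantoin, the product of urate oxidation by uricase, at 0.3 mg/mL in the drinking water, whereas the HFD mice (replicates 1 to 3) did not. The labels name a lower dose as well and tie no dose to a library, so the dose is the one the study's methods give for the group called Allantoin-H. No chow-fed liver was analysed here, so every value compares allantoin with no allantoin under the HFD.

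Complement is a chain of plasma proteases and recognition proteins that marks targets with fragments of C3 and, at its end, builds a pore from the terminal components. Coagulation is a second chain of proteases, several of which need vitamin K for their modification, that ends with thrombin turning fibrinogen into fibrin, while plasmin made from plasminogen dissolves the clot. Hepatocytes make most of these proteins, and many of them also change in the acute phase response of the liver to inflammation.

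Libraries held 11326372 to 14601457 counts. The share of counts from the mitochondrial chromosome ran from 17.9% to 36.5% without allantoin and from 6.92% to 11.4% with it, and HFD replicate 1 had the highest share. HFD replicate 2 stood apart by fat cell genes, since Adipoq and Plin1 were at 51.4 and 49.2 CPM there and below 0.1 CPM in every other library. Hepatocyte markers summed to 89605 to 91241 CPM in the HFD livers and to 73842 to 103249 CPM in the HFD+Allantoin-H livers. Most of these sums came from Alb, at 55939 to 62025 CPM in the HFD livers and 54402 to 82145 CPM in the HFD+Allantoin-H livers. With allantoin, 2 of 8 tested hepatocyte markers were higher and 3 were lower. Values are normalised read counts, in CPM after TMM scaling, listed in the order of replicate number, and fold changes are HFD+Allantoin-H over HFD with the standard error (SE) of the log2 value. A gene was called at an adjusted p under 0.05 in edgeR's quasi-likelihood test over all 12795 genes. In whole liver, fewer cells of a type and less RNA per cell cannot be told apart.

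Of the 45 genes, 4 were higher with allantoin (F13b, C3, Plg and Cfb), 8 were lower (Fetub, Klkb1, Vtn, Proc, C6, Mbl1, C8g and F11) and 33 were not called. Among the 4, Cfb passed the filter on low counts only through the HFD+Allantoin-H libraries. The higher genes made up 8.89% of the list against 11.3% of all tested genes, and the lower genes 17.8% against 13.0%, so neither share was far from that of the liver transcriptome as a whole. The median log2 fold change of the 45 genes was -0.07 against -0.03 over all tested genes, with 21 genes above 0 and 24 below it. The list as a whole did not shift, and the values of single genes ran from -1.35 to 2.64 on the log2 scale. All HFD+Allantoin-H libraries lay above all HFD libraries for 8 genes (17.8%), against 22.4% of all tested genes, and below them for 15 genes (33.3%), against 21.9%. Only F13b, Fetub and Klkb1 stayed called in each of the 6 fits that left out 1 library. Without HFD+Allantoin-H replicate 5 they were also the only calls, with 1 gene higher and 2 lower, and over the 6 fits 1 to 5 genes were called higher and 2 to 12 lower. With scaling by library size alone, the median of all genes moved by 0.41 on the log2 scale, and 11 genes were higher and 1, Fetub, was lower.

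**Figure D1:**
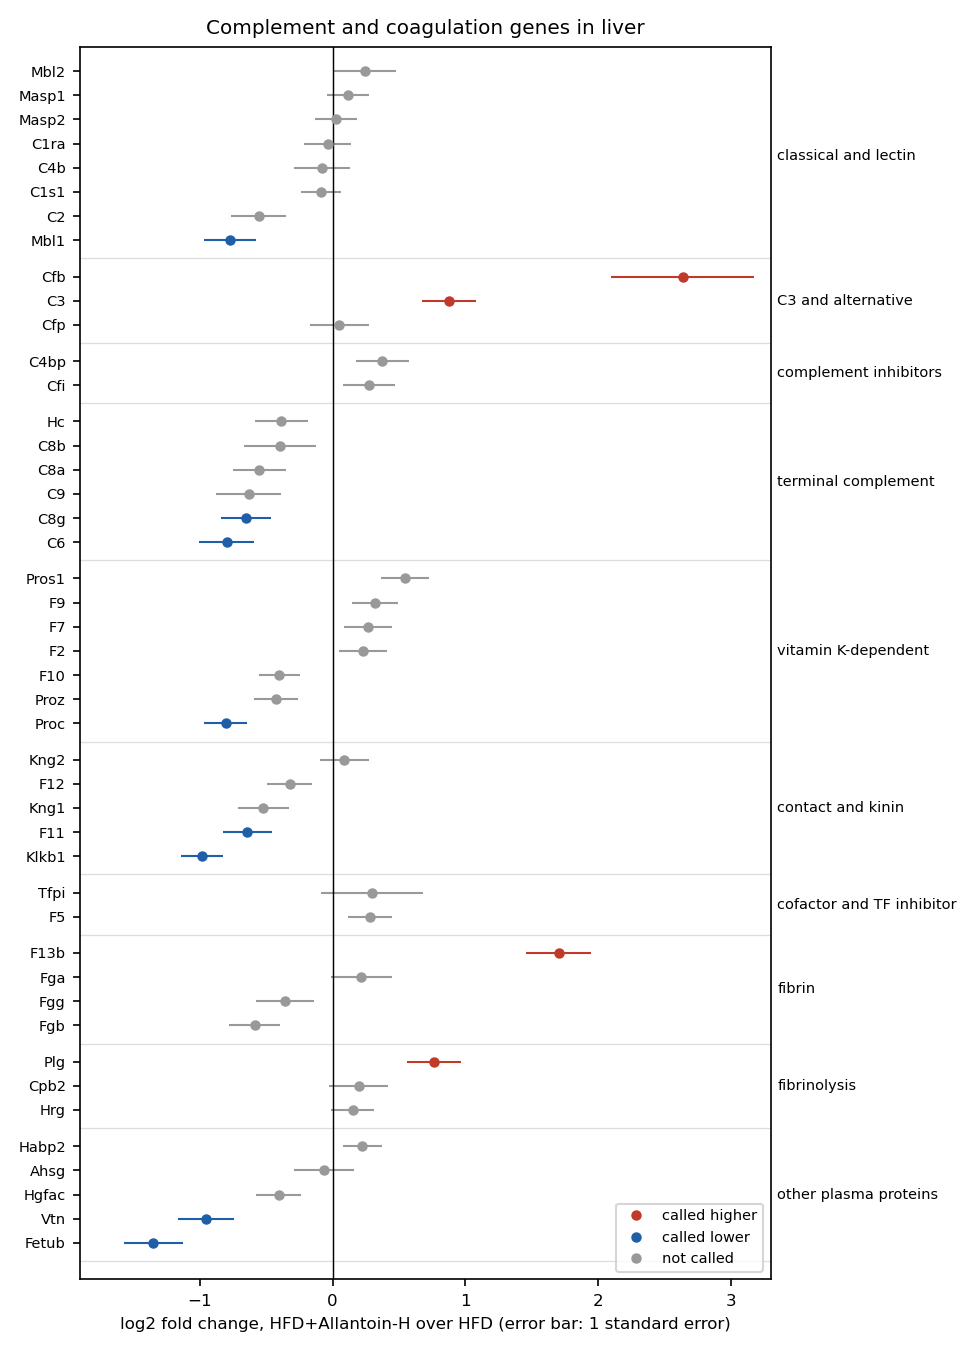
Log2 fold change of each of the 45 genes (x axis, HFD+Allantoin-H over HFD) with 1 SE as the error bar, ordered by role in complement, coagulation and related pathways. Red points are the 4 genes called higher, blue points the 8 called lower and grey points the 33 not called, and all 6 terminal complement genes of the list lie below 0.

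Apart from Cfb, which had few counts, the largest changes fell on the last step of clotting and on a fetuin. F13b encodes the carrier subunit of factor XIII, the enzyme that cross-links fibrin, and lies at chr1:139501702-139523752 (GRCm38). Its level was 40.4, 72.5 and 73.8 CPM in the HFD livers and 181, 205 and 222 CPM in the HFD+Allantoin-H livers. Every liver with allantoin lay above every liver without it, and the gene was 3.25-fold higher (log2 1.70, SE 0.24, adjusted p = 0.0039). The call held in all 15 alternatives, with fold changes of 1.47 to 2.08 on the log2 scale. Fetub encodes fetuin-B, a plasma inhibitor of astacin proteases, at chr16:22918334-22939778. It was measured at 1110, 721 and 659 CPM in the HFD livers and at 330, 336 and 311 CPM in the HFD+Allantoin-H livers. The groups did not overlap, and the HFD+Allantoin-H livers were close to each other (326 ± 12.9 CPM, SD, n = 3). Fetub was 2.55-fold lower (log2 -1.35, SE 0.22, adjusted p = 0.0051), and this call too held in all 15 alternatives. Its relative Ahsg, the gene for fetuin-A and the neighbour of Fetub on chromosome 16, did not follow. Ahsg stood at 3432, 4945 and 5208 CPM in the HFD livers and at 4167, 5011 and 3784 CPM in the HFD+Allantoin-H livers, overlapping groups with a log2 fold change of -0.07 (SE 0.23, adjusted p = 0.86).

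**Figure D2:**
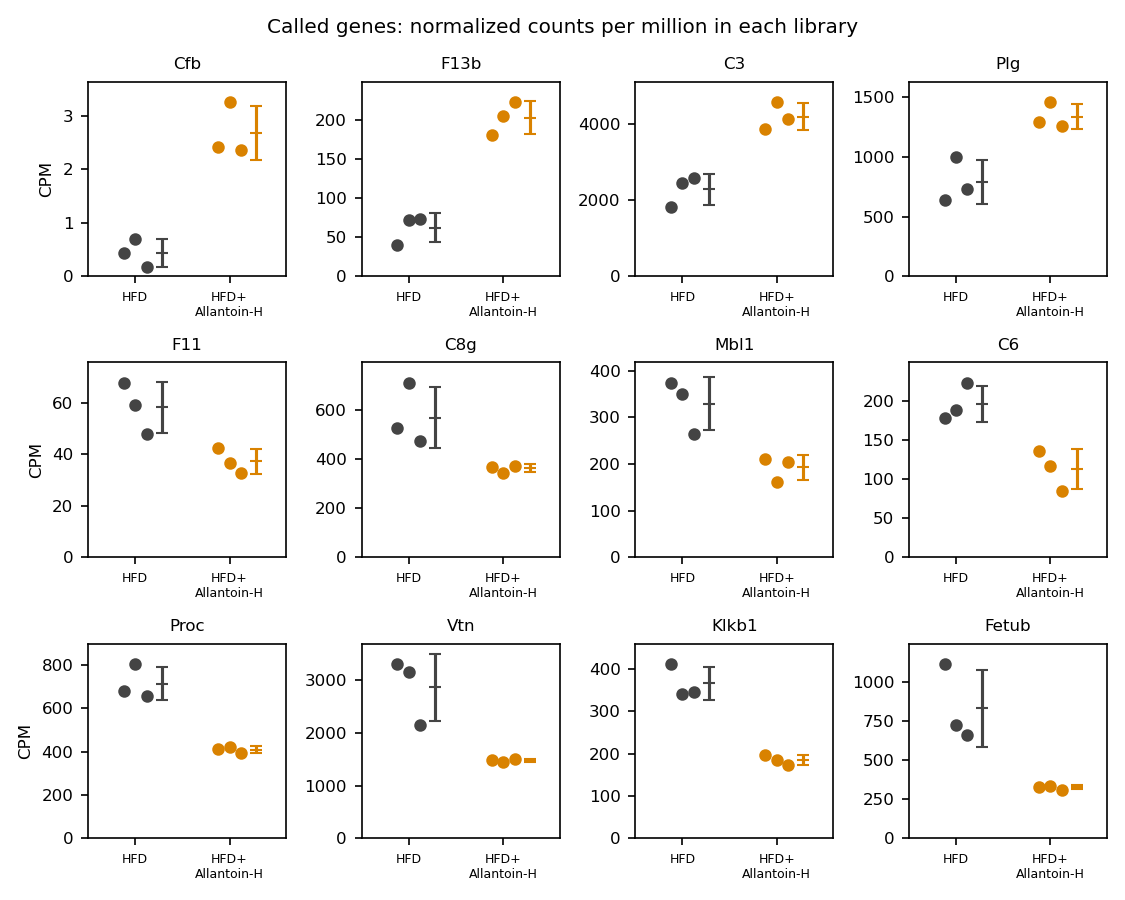
Normalised read counts in CPM (y axis, from 0) in each library for the 12 called genes, with the mean ± SD of each group of 3 livers beside the points. The groups do not overlap for any of the 12 genes, and the HFD livers spread more widely than the HFD+Allantoin-H livers for Vtn, C8g and Fetub.

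In complement, the central component rose while the listed genes of the terminal pathway had lower values. C3, the protein on which all activation routes meet, lies at chr17:57203970-57228136. Its level was 1829, 2440 and 2575 CPM in the HFD livers and 3875, 4563 and 4125 CPM in the HFD+Allantoin-H livers. C3 was 1.84-fold higher (log2 0.88, SE 0.20, adjusted p = 0.016), and the call was lost only without HFD+Allantoin-H replicate 5 (log2 0.82, adjusted p = 0.072). Cfb, the protease of the alternative pathway, is known as a strongly inducible gene. Few counts were assigned to it here, with 4, 7 and 2 in the HFD libraries and 33, 55 and 35 in the HFD+Allantoin-H libraries. These counts correspond to 0.437, 0.691 and 0.167 CPM against 2.42, 3.25 and 2.36 CPM. The log2 fold change was 2.64 (SE 0.54, adjusted p = 0.010), and it rested on few counts and was not called without HFD+Allantoin-H replicate 5 (log2 2.47, adjusted p = 0.060). Its HFD counts alone would not have passed the filter on low counts. Of the 2825 exon bases of Cfb, 2246 are shared with an annotated read-through gene on the same strand, Gm20547, which was listed at 0 counts in every library, so the level of Cfb is uncertain. The third gene of this branch, Cfp for properdin, which white blood cells make, had a log2 fold change of 0.05 (SE 0.22, adjusted p = 0.89) and its highest value, 31.0 CPM, in HFD replicate 2.

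Macrophages also express complement genes. Of 9 macrophage and Kupffer cell markers 3 were higher (Adgre1, Cd5l and Vsig4), none was lower and 6 were not called, with values from -0.10 for Timd4 to 2.71 for Adgre1 on the log2 scale. All 9 were detected in every library, and their sum was 129 to 319 CPM in the HFD livers and 395 to 460 CPM in the HFD+Allantoin-H livers. The part of these cells in the values of C3 and Cfb was not tested. Of 3 tested neutrophil markers 1 was lower (Csf3r) and 2 were not called, and the markers summed to 11.9 to 18.8 CPM in the HFD livers and to 3.79 to 9.38 CPM in the HFD+Allantoin-H livers. The defining marker Ly6g was at 0 in every library but HFD+Allantoin-H replicate 6.

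The terminal pathway consists of C5, encoded by Hc, and of the components C6 to C9 that form the membrane attack complex. All 6 listed genes had negative log2 fold changes, from -0.80 to -0.39, where the median of all tested genes was -0.03. Hc and C8b turned slightly positive, at 0.05 and 0.03, when counts were scaled by library size alone. C7 was no member of the list. It held at most 6 counts in any library and was not tested. C6 and C8g were called. C6 was at 178, 189 and 223 CPM in the HFD livers and at 137, 117 and 85.2 CPM in the HFD+Allantoin-H livers (log2 -0.80, SE 0.21, adjusted p = 0.023). C8g, which encodes the small lipocalin-like chain of C8, was at 525, 708 and 474 CPM in the HFD livers and at 369, 345 and 373 CPM in the HFD+Allantoin-H livers (log2 -0.65, SE 0.19, adjusted p = 0.037). Both calls were fragile. That of C6 was lost without HFD+Allantoin-H replicates 5 or 6 (adjusted p = 0.088 and 0.081), and that of C8g without HFD replicate 2 (log2 -0.46, adjusted p = 0.10) or without any of the HFD+Allantoin-H replicates (adjusted p = 0.094 to 0.14). After correction for GC content and transcript length, C8g was at -0.34 and not called (adjusted p = 0.15). Hc was measured at 1008, 844 and 650 CPM in the HFD livers and at 571, 650 and 695 CPM in the HFD+Allantoin-H livers, which overlapped (log2 -0.39, SE 0.20, adjusted p = 0.19). The other chains of C8 were not called, with C8a at 751, 596 and 480 CPM against 447, 375 and 424 CPM (log2 -0.55, SE 0.20, adjusted p = 0.072) and C8b at 170, 245 and 160 CPM against 174, 171 and 92.9 CPM (log2 -0.40, SE 0.27, adjusted p = 0.31). C9, the subunit that polymerises into the pore wall, had 875, 812 and 453 CPM against 468, 446 and 467 CPM (log2 -0.63, SE 0.24, adjusted p = 0.089). Without HFD replicate 3, C8a and C9 passed the test (adjusted p = 0.026 and 0.0079).

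Of the 8 genes that start complement by the classical and lectin routes, 1 was lower and 7 were not called. Mannose-binding lectins recognise sugars on microbes, and mice have a gene for each of their forms, Mbl1 and Mbl2. Mbl1 was at 373, 351 and 265 CPM in the HFD livers and at 212, 162 and 205 CPM in the HFD+Allantoin-H livers. All livers with allantoin were below those without (log2 -0.77, SE 0.19, adjusted p = 0.021), but the call was lost without HFD replicate 2 (adjusted p = 0.052) or any of the HFD+Allantoin-H replicates (adjusted p = 0.060 to 0.11). Mbl2 was at 150, 230 and 276 CPM against 229, 250 and 299 CPM, with overlapping groups (log2 0.24, SE 0.23, adjusted p = 0.48). Their proteases Masp1 and Masp2 had log2 fold changes of 0.12 and 0.02, and the proteases of the classical pathway C1ra and C1s1 had -0.04 and -0.09. C4b, the source of the C4 fragments, was at -0.08 and C2, its partner in the C3 convertase, at -0.56 (SE 0.21, adjusted p = 0.081). C2 was called without HFD replicate 3 (log2 -0.72, adjusted p = 0.021). The complement inhibitors C4bp and Cfi had values of 0.37 and 0.27 and were not called.

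Several of these genes have near copies or overlap other genes, which limits how well their reads can be placed. C4b shares 96.0% identity over 5378 bases with C4a, the sex-limited C4 gene, which is no member of the list and was itself lower, with 2204, 1011 and 732 counts in the HFD libraries and 331, 401 and 234 counts in the HFD+Allantoin-H libraries (log2 -2.65, SE 0.46, adjusted p = 0.0060). When C4b and C4a were summed, the log2 fold change became -0.20 and was not called (adjusted p = 0.54). C1ra resembles C1rb at 97.9% identity and C1s1 resembles C1s2 at 96.0%, but these copies held at most 10 counts in any library. Of the 3307 exon bases of Masp2, 1817 overlap Tardbp on the opposite strand, and whether counting used strand is not given in the sources used here. Klkb1 shares 2267 of its 5249 exon bases with the read-through gene Gm45753, which was at 0 counts in every library. C2 shares 1656 of its 3872 exon bases with Gm20547, the read-through gene that also covers Cfb and was at 0 counts in every library. A further overlap of C2, of 161 bases, is with Zbtb12 on the opposite strand.

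In coagulation, the vitamin K-dependent proteins did not move as a block. Proc encodes protein C, the protease that inactivates factors Va and VIIIa, and lies at chr18:32123126-32139570. It was at 681, 802 and 657 CPM in the HFD livers and at 413, 422 and 391 CPM in the HFD+Allantoin-H livers, without overlap. Proc was 1.75-fold lower (log2 -0.80, SE 0.16, adjusted p = 0.0098), and the adjusted p was 0.052 without HFD+Allantoin-H replicate 4 and 0.053 without replicate 5. F2, the prothrombin gene, was at 880, 1207 and 1123 CPM against 1249, 1310 and 1199 CPM (log2 0.23, SE 0.18, adjusted p = 0.38). Pros1, which encodes the cofactor of protein C, lay on the other side of 0 from Proc, at 37.7, 48.6 and 52.3 CPM against 59.2, 71.8 and 71.3 CPM. Its groups did not overlap, but it just missed the threshold (log2 0.55, SE 0.18, adjusted p = 0.054) and was called in 6 of its 15 alternatives. The proteases F9 and F7 had log2 fold changes of 0.32 and 0.27, whereas F10 and Proz, which codes for the cofactor of a factor Xa inhibitor, had -0.40 and -0.43. Proz was called without HFD replicate 3 (log2 -0.52, adjusted p = 0.046). The cofactor F5 was at 0.28, and Tfpi, the tissue factor pathway inhibitor that endothelium also makes, was at 0.30 with only 3.51 to 8.43 CPM in any library. None of these was called.

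The contact system, in which factor XII and plasma kallikrein activate each other and cut bradykinin from kininogen, held the third of the stable calls. Klkb1, the gene for plasma prekallikrein at chr8:45266689-45294859, was at 411, 342 and 347 CPM in the HFD livers and at 196, 186 and 174 CPM in the HFD+Allantoin-H livers. Every liver with allantoin was below every liver without it, and Klkb1 was 1.98-fold lower (log2 -0.98, SE 0.16, adjusted p = 0.0050). Of its alternatives, only scaling by library size alone lost the call (log2 -0.56, adjusted p = 0.056). F11, the neighbour of Klkb1 and its closest relative by descent, was at 67.5, 59.0 and 47.9 CPM against 42.3, 36.7 and 32.7 CPM (log2 -0.64, SE 0.18, adjusted p = 0.035). It was lost without HFD replicates 1 or 2 (adjusted p = 0.072 and 0.066) and without any of the HFD+Allantoin-H replicates (adjusted p = 0.073 to 0.13). Kininogen 1, Kng1, was at 2334, 2414 and 1940 CPM against 1414, 1417 and 1824 CPM, without overlap but above the threshold (log2 -0.52, SE 0.19, adjusted p = 0.076). Its copy Kng2 was at 207, 206 and 243 CPM against 216, 198 and 284 CPM (log2 0.09, SE 0.19, adjusted p = 0.76). F12 had a log2 fold change of -0.32 and was not called.

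Fibrinogen is built from pairs of 3 chains whose genes Fgg, Fga and Fgb lie together within chr3:83007724-83049863. None of the 3 was called. Fga was at 1420, 2264 and 1791 CPM in the HFD livers and at 2013, 1796 and 2549 CPM in the HFD+Allantoin-H livers (log2 0.22, SE 0.23, adjusted p = 0.52). Fgb was at 4150, 3782 and 3398 CPM against 2406, 2208 and 2928 CPM, which did not overlap (log2 -0.59, SE 0.19, adjusted p = 0.056), and it was called in 4 of its 15 alternatives. Fgg was at 2648, 3245 and 2615 CPM against 2037, 1803 and 2802 CPM (log2 -0.36, SE 0.22, adjusted p = 0.26). The chains also differed in their ratios within a library, which need no scaling between libraries. The ratio of Fgb to Fga counts was 2.92, 1.67 and 1.90 in the HFD livers and 1.20, 1.23 and 1.15 in the HFD+Allantoin-H livers, a log2 difference of -0.82. The ratio of Fgg to Fga counts was 1.86, 1.43 and 1.46 against 1.01, 1.004 and 1.10, a log2 difference of -0.60. Both differences had an exact two-sided permutation p of 0.10, the smallest that 3 against 3 livers allow. The ratio of Fgg to Fgb overlapped between the groups, with a log2 difference of 0.22 (exact permutation p = 0.30).

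Promoter sequence was read for the fibrinogen chains, since they share a locus and a protein, and for F13b and Klkb1, whose calls held when any library was left out. The call of Fetub held in the same way, but its promoter sequence is not printed here. The stretches below come from RefSeq on GRCm38.p6 and run 5′ to 3′ up to the first annotated base of the gene. Capitals mark GTTAAT (a core of the HNF1 motif), TTGCNNAA (a C/EBP motif) and TATAAA on either strand. The stretches lie at chr3:83025903-83026075 (plus strand), chr3:83049864-83050113 (minus strand), chr3:83007474-83007723 (plus strand), chr1:139501457-139501701 (plus strand) and chr8:45294860-45295085 (minus strand).
Fga: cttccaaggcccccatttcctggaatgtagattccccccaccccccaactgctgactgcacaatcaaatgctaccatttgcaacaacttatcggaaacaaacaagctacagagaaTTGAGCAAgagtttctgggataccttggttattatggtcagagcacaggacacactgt
Fgb: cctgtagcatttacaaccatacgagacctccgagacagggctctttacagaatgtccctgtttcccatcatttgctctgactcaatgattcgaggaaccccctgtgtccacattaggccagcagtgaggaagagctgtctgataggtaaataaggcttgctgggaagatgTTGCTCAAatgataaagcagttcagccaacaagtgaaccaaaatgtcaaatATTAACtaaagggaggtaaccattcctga
Fgg: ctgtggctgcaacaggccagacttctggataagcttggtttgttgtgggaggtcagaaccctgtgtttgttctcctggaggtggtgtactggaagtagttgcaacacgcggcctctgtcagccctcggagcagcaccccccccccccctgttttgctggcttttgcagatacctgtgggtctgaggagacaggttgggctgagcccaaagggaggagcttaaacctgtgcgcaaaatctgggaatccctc
F13b: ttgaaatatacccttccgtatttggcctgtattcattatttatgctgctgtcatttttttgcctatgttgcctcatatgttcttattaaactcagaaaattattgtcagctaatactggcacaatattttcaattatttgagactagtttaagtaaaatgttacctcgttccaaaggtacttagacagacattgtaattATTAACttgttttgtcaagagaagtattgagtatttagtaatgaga
Klkb1: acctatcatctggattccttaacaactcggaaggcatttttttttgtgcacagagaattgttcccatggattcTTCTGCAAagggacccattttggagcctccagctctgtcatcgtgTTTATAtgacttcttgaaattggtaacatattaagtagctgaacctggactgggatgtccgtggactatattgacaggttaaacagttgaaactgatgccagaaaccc

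The 250 bases before the RefSeq start of both Fga and Fgb held GTTAAT, TTGCNNAA and the STAT motif TTCNNNGAA, although the GTTAAT of Fga lies in the 77 bases left out above because another annotated transcript of Fga covers them. The same window of Fgg held none of the motifs searched. Promoter windows were found for 37 of the 45 genes (41 windows), and not for C2, C4b, Cfb, Cfi, Kng1, Masp1, Plg and Proc. GTTAAT was present in 31.7% of the members' windows against 6.43% of all 32851 windows of this length, and TTGCNNAA in 29.3% against 9.56%. TTCNNNGAA was in 17.1% against 7.02%, TATAAA in 12.2% against 12.4%, and the HNF4 motif CAAAGTCCA in none of the members' windows against 0.384% of all. All motifs were searched on both strands, and TTGCNNAA and TTCNNNGAA can overlap. Of the 7 called lower genes with a window, 1 held GTTAAT (Vtn), 2 held TTGCNNAA (F11 and Klkb1) and 3 held TATAAA (Fetub, Klkb1 and Vtn). A match is a stretch of letters and was not tested as a binding site.

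Clot breakdown and its inhibitors gave 1 called gene. Plg, the gene for plasminogen at chr17:12378608-12419385, was at 635, 995 and 733 CPM in the HFD livers and at 1294, 1455 and 1262 CPM in the HFD+Allantoin-H livers. The groups did not overlap, and Plg was 1.70-fold higher (log2 0.76, SE 0.21, adjusted p = 0.028). The call was lost without HFD replicate 1 (adjusted p = 0.051) or any of the HFD+Allantoin-H replicates (adjusted p = 0.063 to 0.11). Cpb2, which encodes the carboxypeptidase that protects fibrin from plasmin, and Hrg, a histidine-rich protein that binds plasminogen, had log2 fold changes of 0.20 and 0.15 and were not called.

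Among the other plasma proteins, vitronectin changed. Vtn codes for this adhesion protein, which also holds back the terminal complement complex, at chr11:78499091-78502324. It was at 3295, 3154 and 2138 CPM in the HFD livers and at 1482, 1451 and 1499 CPM in the HFD+Allantoin-H livers. The HFD+Allantoin-H livers were nearly the same (1477 ± 24.4 CPM, SD, n = 3), whereas the HFD livers were spread (2862 ± 631 CPM, SD, n = 3). Vtn was 1.94-fold lower (log2 -0.95, SE 0.21, adjusted p = 0.013), a call lost without HFD+Allantoin-H replicates 4 or 5 (adjusted p = 0.061 and 0.066). The protease genes Habp2 and Hgfac, for the factor VII-activating protease and the activator of hepatocyte growth factor, had log2 fold changes of 0.22 and -0.41 and were not called.

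Ratios within a library were taken for 14 pairs of subunits, relatives or partners, and the groups did not overlap for 8 of them. Taken singly, 44.3% of all tested genes did not overlap either, and no share over other pairs of genes was computed. The pairs were chosen with earlier results of these data known. The 8 pairs without overlap had an exact two-sided permutation p of 0.10, or 0.175 after Benjamini-Hochberg adjustment over the 14 pairs, so no pair could pass 0.05. Counts were not divided by gene length, so the change of a ratio is read and not its level. The ratio of Ahsg to Fetub was 3.09, 6.86 and 7.90 in the HFD livers and 12.6, 14.9 and 12.2 in the HFD+Allantoin-H livers (log2 difference 1.26). The ratio of Mbl1 to Mbl2 was 2.48, 1.52 and 0.960 against 0.925, 0.647 and 0.685 (-1.05), and its groups were close at the edge. Proc to F2, protein C against prothrombin, was 0.774, 0.664 and 0.585 against 0.330, 0.322 and 0.326 (-1.04), the tightest values within the HFD+Allantoin-H group of all pairs. Kng1 to Kng2 was 11.3, 11.7 and 7.97 against 6.56, 7.14 and 6.42 (-0.60). F10 to F7, whose genes are neighbours on chromosome 8 and whose products work together at the start of clotting, was 8.16, 7.03 and 8.04 against 5.17, 4.01 and 5.62 (-0.66). F11 to Klkb1 was 0.164, 0.173 and 0.138 against 0.216, 0.198 and 0.188 (0.35). The pairs whose groups overlapped had log2 differences of 0.11 for C8b to C8a (exact permutation p = 0.80), -0.10 for C8g to C8a (0.70), 0.10 for Masp1 to Masp2 (0.30), 0.06 for C1ra to C1s1 (0.70) and -0.41 for C4b to C4bp (0.30).

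**Figure D3:**
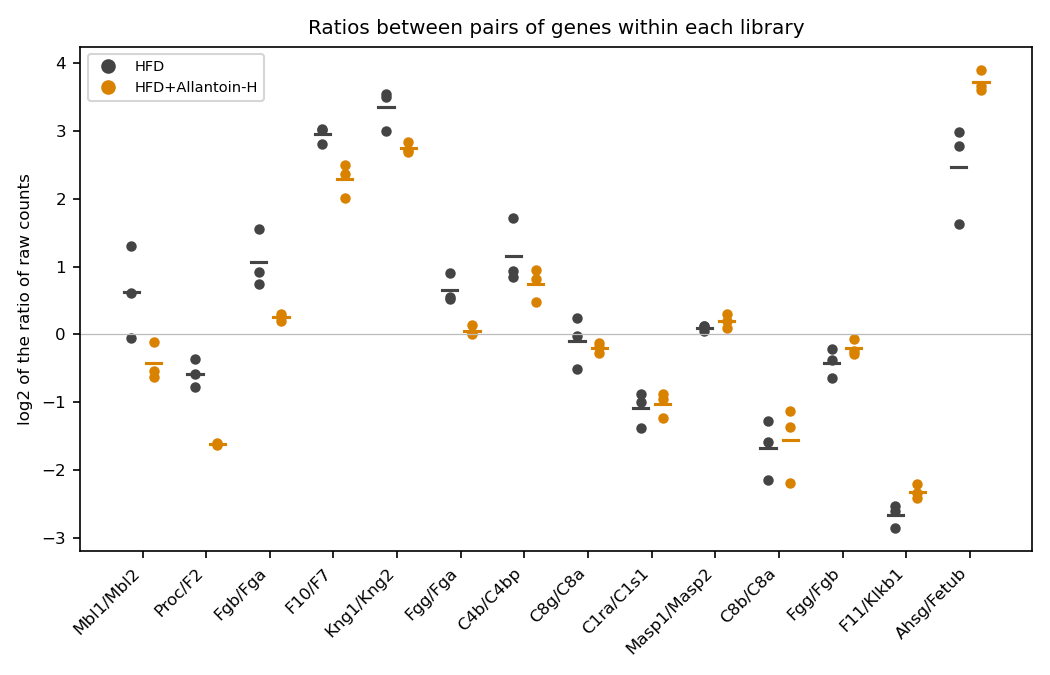
Log2 ratio of raw counts (y axis) for 14 pairs of genes, with 1 point per liver and the mean of each group as a bar, in dark grey for HFD and orange for HFD+Allantoin-H. The groups are separate for 8 pairs, among them Fgb/Fga, Mbl1/Mbl2, Proc/F2 and Ahsg/Fetub.

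Members that lie within 500000 bases of each other formed 7 clusters, and some of these held values on both sides of 0. The 6 genes between Ahsg and Masp1 on chromosome 16 (Ahsg, Fetub, Hrg, Kng2, Kng1 and Masp1) had log2 fold changes of -0.07, -1.35, 0.15, 0.09, -0.52 and 0.12. The neighbours F7, F10 and Proz on chromosome 8 had 0.27, -0.40 and -0.43 (F10 was at 0.02 when counts were scaled by library size alone), while F11 and Klkb1, elsewhere on that chromosome, were both called lower. C8b and C8a on chromosome 4 had -0.40 and -0.55, and C1ra and C1s1 on chromosome 6 had -0.04 and -0.09, with none of these called. C4b, Cfb and C2 on chromosome 17 had -0.08, 2.64 and -0.56, and Fgg, Fga and Fgb on chromosome 3 had -0.36, 0.22 and -0.59.

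Per kilobase of exon, the order of the genes shifted at the top. Ahsg had the highest mean in both groups, at 2061 CPM per kb in the HFD livers and 1967 CPM per kb in the HFD+Allantoin-H livers. C3 moved from rank 7 (444 CPM per kb) to rank 3 (814), and Plg from rank 15 (212) to rank 8 (360). Vtn moved from rank 2 (1410) to rank 4 (728), Fetub from rank 8 (423) to rank 18 (166) and Proc from rank 10 (288) to rank 19 (165). F13b went from rank 39 to rank 28, and Tfpi and Cfb remained at ranks 44 and 45, though the level of Cfb is uncertain. These genes took 2.50%, 3.28% and 3.04% of all counts in the HFD livers and 3.50%, 3.60% and 3.59% in the HFD+Allantoin-H livers. With mitochondrial counts left out of the total, the shares were 3.94%, 4.11% and 3.70% against 3.79%, 3.87% and 4.06%, so that the difference of the means went from 0.627 to -0.0123 percentage points.

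**Figure D4:**
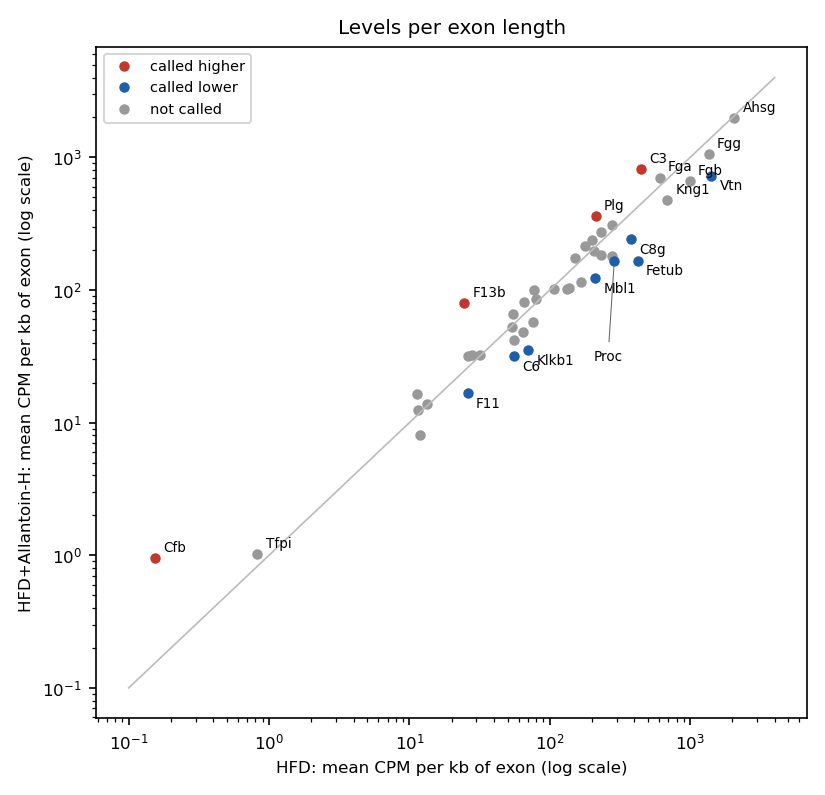
Mean CPM per kb of exon in the HFD livers (x axis) and in the HFD+Allantoin-H livers (y axis), both on a log scale, with 1 point per gene and the line of equal levels. Values run from Cfb, whose level is uncertain, at 0.153 and 0.948 CPM per kb, to Ahsg. C3 and Plg lie above the line while Vtn and Fetub lie below it.

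Other genes of the pathway were listed apart from the 45 genes, and their counts are read against the 11.3% of all tested genes called higher and the 13.0% called lower. Of 28 other complement genes tested 4 were higher and 3 were lower, and the median value was 0.21 on the log2 scale. The collectin genes Colec10 (2.20, adjusted p = 0.0015) and Colec11 (0.97, adjusted p = 0.011) were higher, and Cfhr2, a relative of factor H, was lower (-0.74, adjusted p = 0.0135). Colec11 is also a stellate cell marker. Of 8 stellate markers 6 were higher and none was lower, and Colec11 itself is among the 6. All 8 were detected in every library. Their sums, which include Colec11, were 141 to 215 CPM in the HFD livers and 358 to 413 CPM in the HFD+Allantoin-H livers. The part of these cells in the collectin values was not tested. Of 23 other coagulation genes 2 were higher, F8 for factor VIII (1.54, adjusted p = 0.013) and the protease inhibitor Pzp (0.74, adjusted p = 0.024), and 1 was lower, S100a10 for a cell surface receptor of plasminogen (-1.19, adjusted p = 0.026). Of 7 serpins of these cascades only Serpind1 for heparin cofactor II was called (0.68, adjusted p = 0.0245). F8 is made by sinusoidal endothelium, of whose 9 markers none was called higher and 1 was called lower. Values were above 0 for 8 of the 9 markers and below 0 for 1, with a median of 0.54. The markers summed to 117 to 205 CPM in the HFD livers and to 163 to 249 CPM in the HFD+Allantoin-H livers. The part of these cells in the value of F8 was not tested.

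Genes that modify these proteins or control their transcription were also listed, against the same 11.3% higher and 13.0% lower among all tested genes. Of 10 genes for vitamin K-dependent carboxylation, propeptide removal and export 2 were higher, the proprotein convertases Pcsk6 (1.15, adjusted p = 0.0046) and Furin (0.95, adjusted p = 0.017), and 1 was lower, Vkorc1 for the enzyme that recycles vitamin K (-0.74, adjusted p = 0.033). Of 20 hepatocyte transcription factors 6 were higher and 3 were lower. Ppara (2.02, adjusted p = 0.0039) and Rxra (0.92, adjusted p = 0.0079) were higher, and Cebpb, which encodes a C/EBP factor, was lower (-1.30, adjusted p = 0.0034), as was the corepressor gene Nr0b2 (-1.81, adjusted p = 0.0072). Of 18 genes of interleukin 6, interleukin 1 and STAT3 signalling and its acute phase targets 4 were higher and 2 were lower, with a median of -0.26. The receptor genes Il6st (0.85, adjusted p = 0.012) and Il6ra (0.72, adjusted p = 0.035) and the kinase gene Jak1 (0.54, adjusted p = 0.030) were higher. Il1r1, the interleukin 1 receptor gene (-1.81, adjusted p = 0.0050), and the acute phase gene Hp (-0.98, adjusted p = 0.036) were lower. Of the 18 genes, 7 had values above 0 and 11 below it.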

How the data were processed

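RNA-seq libraries (SMARTER mRNA-Seq kit, Illumina HiSeq) came from 6 livers, 3 of the HFD and 3 of the HFD+Allantoin-H group. The authors deposited raw read counts per gene, made from filtered reads. The submitters' processing notes name the builds GRCm38 and mm10, and the aligner, the counter and its use of strand are not given in the sources used here. A further 429 entries without an Ensembl identifier (0.197% to 0.306% of counts) were left out, and 54495 of 54532 identifiers were found in GENCODE M21. Totals of 11326372 to 14601457 counts limit genes with few counts, such as Cfb.

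Counts were analysed in edgeR 4.0.16 (R 4.3.3) with TMM scaling, filterByExpr, the quasi-likelihood test with group as the only term, and Benjamini-Hochberg adjustment over 12795 genes. The fits were tested on simulated data. The simulation was not built with the difference in mitochondrial share between the groups, so it cannot judge the choice of scaling. Ratios of raw counts within a library were compared by exact two-sided permutation. Near-identical copies were transcripts with at least 95% identity over 200 bases (BLAST). Alternatives were RLE, upper-quartile and library-size scaling, DESeq2 1.42.0, limma-voom (limma 3.58.1), other filters and thresholds, leaving out each library or the mitochondrial chromosome, and correcting every library for transcript length and GC content with splines. Summing genes with their copies was an alternative chosen after seeing the data, as were the promoter motifs. Values per library are given for called genes, the fibrinogen chains, C3, Hc, F2, Plg and the pairs discussed, and beyond this rule for C9 and Pros1. Of the other lists at most 4 genes each are named, those with the smallest p, and Adipoq, Plin1, Ly6g, Timd4, C7, Alb and Hp beside them. The 45 genes, the lists and the pairs were chosen with earlier results of these data known.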

Additional observations from a re-analysis of the deposited data

How the results depend on the processing

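Scaling by RLE factors or upper quartiles changed no call among the 45 genes. Scaling by library size alone gave 11 genes higher, 1 lower and a median of 0.36, and it turned C1ra (0.36), C1s1 (0.33), C4b (0.36), Hc (0.050), C8b (0.025), F10 (0.021), F12 (0.10), Fgg (0.049), Ahsg (0.33) and Hgfac (0.021) above 0 on the log2 scale. In that setting 7 of the lower calls were lost. DESeq2 called 5 genes higher and 11 lower, limma-voom 5 and 9. At an adjusted p under 0.01, 1 gene was higher and 3 were lower, and with an absolute log2 fold change above 1 as well as an adjusted p under 0.05 it was 2 and 1. Without a filter on low counts C1ra was at 0.0014. With the trend in length and GC content removed, Masp1, Masp2 and Ahsg were at -0.060, -0.073 and 0.10. The filter of at least 10 counts in every library removed Cfb. The difference in the share of all counts was -0.0123 percentage points without mitochondrial counts and -0.18 without the 10 most abundant other genes as well.

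Leaving out each library in turn gave 1 to 5 genes higher, 2 to 12 lower and medians of -0.11 to 0.00072. Over these fits the log2 fold change ranged from -0.17 to 0.052 for C1ra, from -0.22 to 0.13 for C4b, from -0.073 to 0.33 for Cfp, from -0.038 to 0.11 for Masp2, from -0.078 to 0.20 for Kng2, from -0.24 to 0.047 for Ahsg, from -0.037 to 0.32 for Cpb2 and from -0.12 to 0.54 for Tfpi. The log2 difference in ratio ranged from -0.13 to 0.42 for C8b to C8a, from -0.31 to 0.074 for C8g to C8a and from -0.088 to 0.17 for C1ra to C1s1. The cause of these moves was not tested. No paired analysis was made, since the groups were separate mice (replicates 1 to 3 against 4 to 6) and no pairing was given.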

Other observations

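The HFD livers were less alike than the HFD+Allantoin-H livers in these genes. The SD of log2 CPM was larger in the HFD group for 29 of the 45 genes (64.4%), against 74.1% of all tested genes, and its median over the 45 genes was 0.25 in the HFD group and 0.16 in the HFD+Allantoin-H group, against 0.35 and 0.20 over all tested genes. The ratios within a library showed the same order, with the larger SD in the HFD group for 11 of 14 pairs. The SD of the log2 ratio of Proc to F2 was 0.20 in the HFD group and 0.018 in the HFD+Allantoin-H group.

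Blood cell genes were not called in either direction, with 4 of 4 globin and erythroid markers tested and sums of 319 to 1288 CPM in the HFD livers and 858 to 1032 CPM in the HFD+Allantoin-H livers. Of the 3 bile duct markers tested 1 was lower, Sox9, which was at 13.0, 8.30 and 43.6 CPM in the HFD livers and at 2.27, 2.78 and 2.16 CPM in the HFD+Allantoin-H livers (log2 -3.17, adjusted p = 0.0074). Neither of the 2 tested fat cell markers and neither of the 2 tested T and B cell markers was called.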
